A study of Mus musculus with 32 samples.

Results

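The genes described here are the 38 mouse genes whose symbol starts with Ube2, taken by symbol alone from the 44081 genes counted on their 3′UTRs in 16 single neurons. Nearly all of them encode E2 ubiquitin-conjugating enzymes. They also have 95 separately counted 3′ ends, each the last 500 nt of a 3′UTR form, of the 74532 in the series. The neurons were primary hippocampal cells of C57BL/6 mice, taken at embryonic day 18, grown for 15 days and carrying no allele or treatment that the labels name. Soma and dendrites of each neuron were aspirated into separate tubes, so that the 32 libraries form 16 pairs. Both compartments of neurons 1 to 4 had 3 rounds of linear RNA amplification, and those of the other 12 neurons had 2.

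Ubiquitin is passed to proteins in 3 steps. An activating enzyme (E1) loads it onto a conjugating enzyme (E2), and the E2 hands it, with the help of a ligase (E3), to a target protein. The E2 often decides which kind of ubiquitin chain is built, and with that whether the protein is degraded, moved or used as a signalling platform. Some members of the family carry other small modifiers in place of ubiquitin, such as NEDD8 or ISG15. In neurons, local ubiquitination in dendrites is known for its part in the turnover of synaptic proteins.

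Dendrite libraries held 646521 to 6954420 reads on 3′UTRs (median 1605714) and soma libraries 925525 to 21169974 (median 6165691). The dendrites of neurons 15 and 16 stood apart. They had 1570 and 2485 genes with at least 10 reads, against 3794 to 9871 in the other 14 dendrites, so calls are also given without both neurons. Counts carry no molecular identifiers, so a value describes reads and not molecules. Levels are given as CPM, read counts scaled to library size with the TMM method. They are shares of a library and give no amount of RNA per compartment. Of 5 interneuron markers, Gad1 and Gad2 were at 0 in 0 of the 32 libraries, Slc32a1 in 1, Pvalb in 3 and Sst in 27, and their summed level was 2074 to 11340.0 CPM in dendrites and 1183 to 19881 CPM in somas. Of 5 pyramidal markers, Grin1 was at 0 in 1 library, Camk2a in 5, Slc17a7 in 6, Neurod2 in 8 and Neurod6 in 10, and their sum was 6.67 to 3259 CPM in dendrites and 27.6 to 2025 CPM in somas. The summed level of 6 neuronal markers was 3194 to 14583 CPM in dendrites and 3249 to 12454 CPM in somas. The summed level of 5 astrocyte markers was 0 to 562 CPM in dendrites (median 64.0) and 0 to 143 CPM in somas (median 11.5). That of 5 microglia markers was 0 to 386 CPM in dendrites (median 5.16) and 0 to 17.5 CPM in somas (median 0.199), with each of the 5 at 0 in more than 16 libraries. Mitochondrially encoded genes took 2.39% to 35.8% of dendrite reads and 0.277% to 8.12% of soma reads. The part of these values in the results below was not tested.

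Amplification started at the poly(A) tail and reads were counted on 3′UTRs, so the annotated ends of 4 members are shown. Each line holds the last 30 bases of the coding transcript with the most distal annotated end (GENCODE M21 on GRCm38, which is mm10), 5′ to 3′, with the last match to a poly(A) signal hexamer, AATAAA or ATTAAA, in capitals. Only the transcribed strand was searched. Ube2g2 is shown because its level differed between compartments, Ube2e3 because its 3′ end usage is described below, and Ube2l3 and Ube2d3 because every dendrite library had reads of them.
Ube2g2, chr10:77645964-77645993, plus strand: gctgttaAATAAAattgtgtacctgtcctc
Ube2e3, chr2:78921264-78921293, plus strand: cctggAATAAAttatctgtggtcaatgtct
Ube2l3, chr16:17152013-17152042, minus strand: tccttAATAAAaatgttctcagacattaga
Ube2d3, chr3:135468169-135468198, plus strand: tgttaccATTAAAgtctgtgtttaaacaca
One of these hexamers stood in the last 30 bases in 28 of the 36 members with such a window, and in 53.5% of the 48040 coding transcripts of the annotation. These are ends of the annotation, and they were not matched to the counted 3′ ends. Each member was counted by its transcript with the most distal end, and the annotation by all its coding transcripts. The selections differ, so the share of the annotation is no background for the count of the members.

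Most E2 genes were read in both compartments of these neurons. Somas had 27.4 ± 2.09 members with at least 10 reads (SD, n = 16, range 21 to 30), and dendrites had 20.1 ± 6.67 (SD, n = 16, range 5 to 27). The lowest dendrite counts, 5 and 7 members, were those of neurons 15 and 16. Without both neurons the dendrites had 22.1 ± 4.05 members (SD, n = 14) and the somas 27.4 ± 2.21 (SD, n = 14). Reads of the 38 genes together made up 0.297% ± 0.0910 (SD, n = 16) of a dendrite library and 0.451% ± 0.122 (SD, n = 16) of a soma library. The shares were 0.319% ± 0.0715 and 0.470% ± 0.119 (SD, n = 14) without those neurons.

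**Figure D1:**
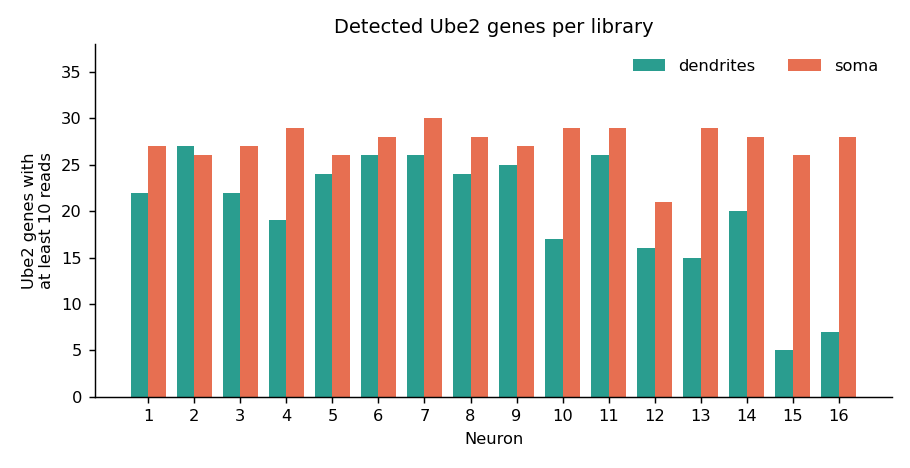
Number of Ube2 genes with at least 10 reads in the dendrites and in the soma of each neuron. Dendrites of neurons 15 and 16 had 5 and 7 such genes, and the other 14 dendrites had 15 to 27.

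Of the 38 members, 29 had reads in 16 libraries or more and were tested. The other 9 were not tested. Ube2dnl2 had no read, and Ube2dnl1 and Ube2u had 1 and 2 reads. Ube2nl, Ube2l6, Ube2d2b, Ube2cbp, Ube2c and Ube2t had 20 to 828 reads in all. Ube2c, which starts ubiquitin chains for the anaphase-promoting complex in dividing cells, had reads in 4 dendrites and 7 somas. Ube2l6, the E2 of the interferon-induced modifier ISG15, had reads in 6 dendrites and 7 somas, with a median of 0 CPM in both. Ube2cbp, a protein that binds an E2 and is not one itself, had reads in 2 dendrites and 6 somas. Ube2t, an E2 of DNA crosslink repair, had reads in 6 dendrites and 3 somas, and 700 of its 828 reads lay in the dendrites of neuron 12, whose soma had none. Ube2d2b and Ube2nl are near copies of Ube2d2a and Ube2n, so the assignment of their few reads is uncertain.

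A total of 10 members were found, with 1 read or more, in 15 or 16 of the dendrites. They were Ube2d2a, Ube2d3, Ube2e2, Ube2h, Ube2l3, Ube2m, Ube2n, Ube2ql1, Ube2r2 and Ube2z, and they made up 34.5% of the tested members, beside 17.1% of all 10880 genes tested. Ube2d3, Ube2l3 and Ube2z had reads in all 16 dendrites. The dendrites of neuron 15 or 16 were the ones without reads for the other 7. Without these neurons, 19 members were found in 13 or 14 of the remaining 14 dendrites. In somas, 27 members were found in 15 or 16 libraries and 22 of them in all 16. The count in dendrites fell to 4 when 10 reads were asked for and to 6 when all dendrites were thinned to the smallest one. A share of all genes is given for the count of 10 alone, so the other counts cannot be set beside all genes.

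**Figure D2:**
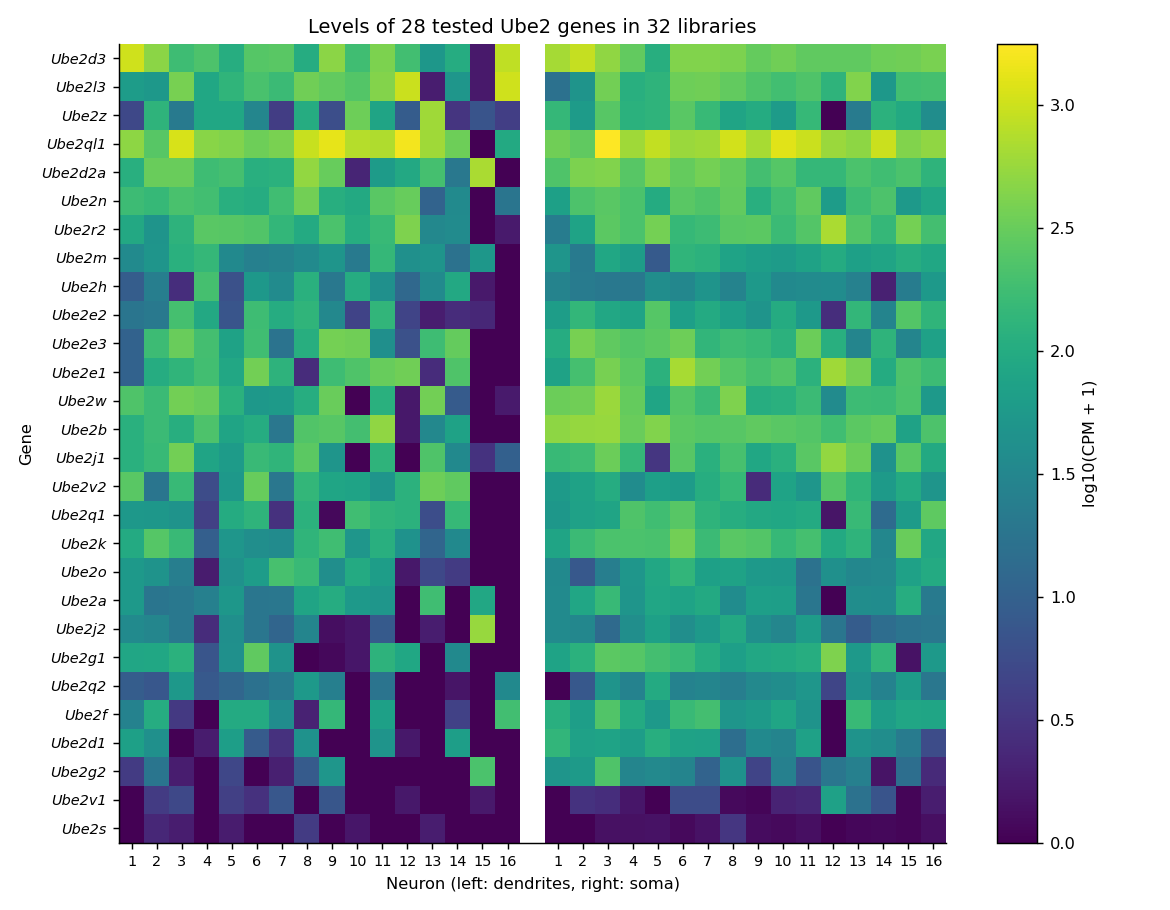
Level of 28 of the 29 tested Ube2 genes, as log10(CPM + 1), in the dendrites (left) and the soma (right) of neurons 1 to 16, with genes ordered by the number of dendrites with reads. The columns of dendrites 15 and 16 are mostly at 0, and the soma columns are filled for nearly every gene.

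The comparison of compartments asked which of these mRNAs were relatively more or less frequent in the dendrites of the same neuron. Each gene was tested with the quasi-likelihood test of edgeR across all 10880 genes with neuron as a block, and p-values were adjusted over all of them. Ube2g2 was lower in dendrites, and no other member passed an adjusted p of 0.05 in either direction. This was 1 of 29 members (3.45%), beside 5.71% of all genes tested that were called higher in somas and 0.827% called higher in dendrites. At an unadjusted p under 0.05, 8 members were lower in dendrites and 0 higher, beside 26.7% and 3.55% of all genes. DESeq2, the tool of the study, called 18 of the 29 members lower in dendrites (62.1%), beside 46.2% of all genes, and 0 members higher, beside 4.26%. Without neurons 15 and 16 it called 7 members lower in dendrites, beside 26.6% of all genes.

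The median of the members lay close to that of all genes. Log2 fold changes of dendrites over somas were below 0 in 28 of the 29 members, beside 78.8% of all genes, with a median of -1.47, beside -1.49 for all genes. TMM scaling left the median gene below 0. Relative to it, 15 members were above and 14 below, and with the dendrites rescaled to the median gene 13 members changed sign and 0 were called, beside 0.846% of all genes called higher in somas and 5.04% called higher in dendrites. A fold change in the following paragraphs is therefore best read against the median of -1.49. The test of a compartment difference that depends on the rounds of amplification called no member (edgeR interaction, 0 members at an adjusted p of 0.05 and 0 at an unadjusted p under 0.05, smallest unadjusted p = 0.242, beside 2.65% of all genes at an unadjusted p under 0.05). DESeq2 also gave 0 members for it, beside 0.395% of all genes.

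**Figure D3:**
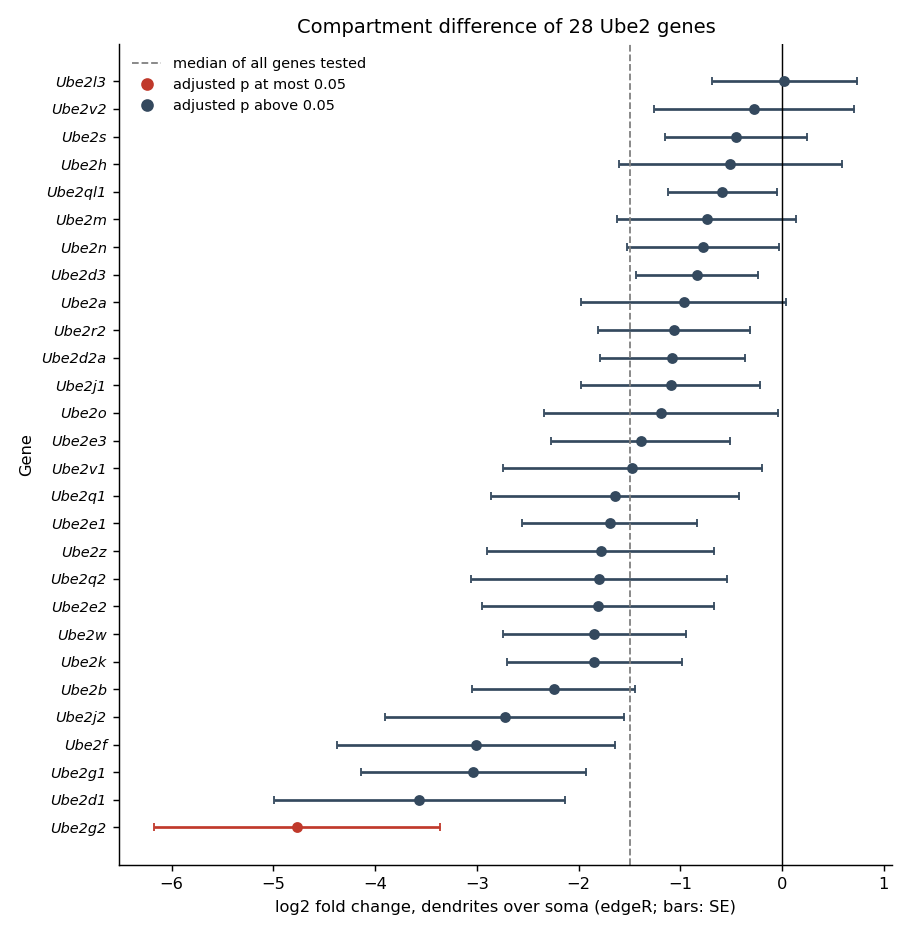
Log2 fold change of dendrites over somas (edgeR, points, with the SE as bars) of 28 of the 29 tested Ube2 genes. The dashed line is the median of all genes tested, -1.49, and Ube2g2 at -4.76 is the gene that passed an adjusted p of 0.05.

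Ube2g2 and its relatives Ube2j1 and Ube2j2 work in the degradation of misfolded proteins of the endoplasmic reticulum, Ube2g2 as a soluble enzyme that builds degradation-linked chains and Ube2j1 and Ube2j2 as membrane-anchored enzymes. Ube2g2 ranged from 0 to 211 CPM in dendrites (median 0.409) and from 0.505 to 225 CPM in somas (median 24.8). It had reads in 8 dendrites and in all 16 somas, and its soma value was higher in 14 of 16 neurons (log2 fold change -4.76, SE 1.40, adjusted p = 0.0346, edgeR). The groups overlapped, and the dendrites of neurons 9 and 15 had 49.7 and 211 CPM. No other dendrite had more than 17.1 CPM, and 8 of the 16 were at 0. The adjusted p rose to 0.0541 without neurons 15 and 16, with a log2 fold change of -5.07, and leaving out single neurons gave adjusted p-values from 0.0267 to 0.0835. The fold change was -4.62 among neurons amplified in 2 rounds and -4.94 among those amplified in 3, with no call in either (adjusted p = 0.115 and 0.706, edgeR). With neuron left out as a block it was -0.95 (adjusted p = 0.720, edgeR), and the mean level was 18.4 CPM in dendrites and 35.6 CPM in somas. Ube2j2 had a median of 8.89 CPM in dendrites, where values ran from 0 to 555, and of 32.7 CPM in somas, where they ran from 7.91 to 90.0. Its highest dendrite value, in neuron 15, exceeded every soma, yet the soma was higher in 14 of 16 neurons (log2 fold change -2.73, SE 1.17, adjusted p = 0.117). With neuron left out as a block the log2 fold change of Ube2j2 was 0.37 (adjusted p = 0.883, edgeR). Its mean level was 46.8 CPM in dendrites and 36.1 CPM in somas. Ube2j1 stood between 0 and 360.4 CPM in dendrites with a median of 96.2, and between 2.30 and 530.1 CPM in somas with a median of 162 (log2 fold change -1.10, SE 0.88, adjusted p = 0.377). Neither passed the test, and both groups overlapped.

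Ube2d1, Ube2d2a and Ube2d3 are closely related E2s that serve many RING-type ligases. Ube2d3 ranged from 0.662 to 1024 CPM in dendrites (median 201) and from 109 to 928 CPM in somas (median 352). Its soma value was higher in 12 of 16 neurons (log2 fold change -0.84, SE 0.60, adjusted p = 0.324), and the dendrites of neuron 1 held the highest value of all libraries. Ube2d2a had a median of 144 CPM in dendrites, where values ran from 0 to 686, and of 235 CPM in somas, where they ran from 127 to 427 (log2 fold change -1.08, SE 0.71, adjusted p = 0.287). The dendrites of neuron 15, poor in other members, held the highest Ube2d2a value. Ube2d1 stood between 0 and 68.2 CPM in dendrites with a median of 1.34, and between 0 and 138 CPM in somas with a median of 54.2. It had reads in 10 dendrites and 15 somas, with the soma higher in 13 of 16 neurons (log2 fold change -3.57, SE 1.43, adjusted p = 0.0965).

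The Ube2e enzymes are relatives of Ube2d with an extended N-terminus. Ube2e1 ranged from 0 to 357 CPM in dendrites (median 129) and from 72.4 to 658 CPM in somas (median 224). The log2 fold change was -1.69 (SE 0.86, adjusted p = 0.172). Ube2e2 had a median of 18.6 CPM in dendrites, where values ran from 0 to 194, and of 81.5 CPM in somas, where they ran from 1.64 to 247 (log2 fold change -1.81, SE 1.14, adjusted p = 0.264). Ube2e3 stood between 0 and 374 CPM in dendrites with a median of 137, and between 29.2 and 376 CPM in somas with a median of 145 (log2 fold change -1.39, SE 0.88, adjusted p = 0.267). None of the 3 passed the test, and the dendrites of neurons 15 and 16 were at 0 for Ube2e1 and Ube2e3. Ube2w, which attaches ubiquitin to the N-terminus of proteins, ranged from 0 to 358 CPM in dendrites (median 109.9) and from 35.5 to 565 CPM in somas (median 165). The log2 fold change was -1.85 (SE 0.90, adjusted p = 0.156).

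Ube2n is the catalytic E2 of signalling chains linked through lysine 63, and Ube2v1 and Ube2v2 are its inactive partners. Ube2n had a median of 131 CPM in dendrites, where values ran from 0 to 355, and of 199 CPM in somas, where they ran from 54.9 to 294 (log2 fold change -0.78, SE 0.74, adjusted p = 0.462). Ube2v2 stood between 0 and 335 CPM in dendrites with a median of 77.6, and between 1.51 and 246 CPM in somas with a median of 70.4 (log2 fold change -0.28, SE 0.98, adjusted p = 0.858). Neither gene passed the test, and Ube2v2 was higher in the soma in 9 of 16 neurons. Ube2v1 had 543 reads in all and shares its 3′UTR with the gene model Gm20431 on the same strand, so its level is uncertain.

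Ube2k, Ube2g1 and Ube2r2 build chains that lead to the proteasome. Ube2g1 ranged from 0 to 287 CPM in dendrites (median 37.5) and from 0.433 to 417 CPM in somas (median 102). The soma was higher in 13 of 16 neurons (log2 fold change -3.04, SE 1.11, adjusted p = 0.0750). Ube2k had a median of 47.4 CPM in dendrites, where values ran from 0 to 248, and of 179 CPM in somas, where they ran from 30.6 to 357 (log2 fold change -1.85, SE 0.86, adjusted p = 0.141). Ube2r2, an E2 of cullin-RING ligases, stood between 0 and 414 CPM in dendrites with a median of 114, and between 22.2 and 692 CPM in somas with a median of 224 (log2 fold change -1.06, SE 0.75, adjusted p = 0.317). Dendrite values were the lower ones in 13 of 16 neurons for each of the 3 genes, and no gene passed the adjusted threshold.

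Ube2l3 works with HECT and RBR ligases, among them parkin. It ranged from 0.662 to 1017 CPM in dendrites (median 182) and from 15.3 to 423 CPM in somas (median 189.5). Its dendrite value was higher in 10 of 16 neurons (log2 fold change 0.02, SE 0.72, adjusted p = 0.986), and it was the one tested member with a fold change above 0, a sign that turned under DESeq2 (-0.28) and in the neurons with 2 rounds (-0.16). The highest value of all libraries was that of dendrite 16, and dendrites 13 and 15 had 1 read each. With the dendrites rescaled to the median gene its log2 fold change was 1.51 (adjusted p = 0.222, edgeR). Without neurons 15 and 16 it was 0.18, and Ube2h and Ube2v2 then also had fold changes above 0 (0.14 and 0.39, edgeR, none called).

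Ube2m and Ube2f carry a modifier other than ubiquitin. Ube2m, an E2 of NEDD8, stood between 0 and 144 CPM in dendrites with a median of 38.3, and between 7.37 and 134 CPM in somas with a median of 73.7. Its log2 fold change was -1.25 in the neurons with 2 rounds and 0.79 in those with 3, a difference that did not pass the interaction test (all neurons: log2 fold change -0.74, SE 0.88, adjusted p = 0.554). Ube2m was 1 of 8 among the 29 tested members whose sign in the neurons with 3 rounds differed from that in all neurons. Ube2f, the second NEDD8 enzyme, ranged from 0 to 181 CPM in dendrites (median 15.0) and from 0 to 231 CPM in somas (median 79.3). It had reads in 11 dendrites and 15 somas (log2 fold change -3.01, SE 1.36, adjusted p = 0.133).

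Ube2a and Ube2b are the mammalian forms of the yeast enzyme Rad6, known from DNA damage tolerance and histone ubiquitination. Ube2b had a median of 105 CPM in dendrites, where values ran from 0 to 514, and of 266 CPM in somas, where they ran from 73.4 to 550.0. The soma was higher in 15 of 16 neurons, the most neurons in one direction of any tested member (log2 fold change -2.25, SE 0.80, adjusted p = 0.0689). Ube2a stood between 0 and 178 CPM in dendrites with a median of 37.1, and between 0 and 155 CPM in somas with a median of 57.3 (log2 fold change -0.97, SE 1.01, adjusted p = 0.501). Ube2s, the chain-elongating E2 of the anaphase-promoting complex, had 51 reads in all libraries together, and its values are close to the limit of counting.

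The remaining enzymes differ in their partners. Ube2ql1, a member of the Ube2q group, had 111066 reads in all. It ranged from 0 to 1531 CPM in dendrites (median 479) and from 286 to 1766 CPM in somas (median 609). The log2 fold change was -0.59 (SE 0.54, adjusted p = 0.439), and dendrite 15 was the one library without a read. Ube2h had a median of 29.2 CPM in dendrites, where values ran from 0 to 192, and of 29.4 CPM in somas, where they ran from 1.01 to 56.8 (log2 fold change -0.51, SE 1.10, adjusted p = 0.758). Each compartment was higher in 8 of 16 neurons. Ube2z, which receives ubiquitin from the E1 enzyme Uba6, stood between 2.15 and 605 CPM in dendrites with a median of 25.4, and between 0 and 258 CPM in somas with a median of 107. It was the one member read in every dendrite and absent from a soma, that of neuron 12 (log2 fold change -1.78, SE 1.12, adjusted p = 0.260). Ube2q1 ranged from 0 to 175 CPM in dendrites (median 52.5) and from 0.546 to 272 CPM in somas (median 93.4). Its log2 fold change was -1.64 (SE 1.22, adjusted p = 0.342). Ube2o, which acts as E2 and E3 at once, and Ube2q2 had log2 fold changes of -1.19 and -1.80, with no call.

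The 3′ ends were also compared one by one. Of the 95 ends of the members, 38 from 27 genes had enough libraries with reads to be tested. In the fit over all 10652 tested ends, 7 were lower in dendrites (18.4%), beside 16.9% of all ends, and 0 were higher, beside 0.723%. Their median log2 fold change was -1.84, beside -2.14 for all ends. Ends are numbered with 1 as the most distal, an order that held in 64 of the 68 genes with 2 ends that could be compared with the annotation.

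The lowest fold change among the tested ends of the members was that of Ube2a end 1, the one counted end of that gene, which ranged from 0 to 25.2 CPM in dendrites (median 0) and from 0 to 141 CPM in somas (median 36.0). The log2 fold change was -5.86 (SE 1.55, adjusted p = 0.0133). Only 6 dendrites and 15 somas had reads on it, whereas 13 dendrites had reads on the whole Ube2a 3′UTR, whose level was not called. Ube2g2 end 1 followed its gene and had a median of 0.506 CPM in dendrites, where values ran from 0 to 128, and of 34.0 CPM in somas, where they ran from 0.641 to 306 (log2 fold change -4.88, SE 1.40, adjusted p = 0.0198). It was called without neurons 15 and 16 as well (log2 fold change -5.05, adjusted p = 0.0406), which held for none of the other 6.

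Ube2e3 had 2 tested ends with unequal fold changes. Its end 3, which carried 17078 of the reads, stood between 0 and 283 CPM in dendrites with a median of 8.44, and between 29.9 and 549 CPM in somas with a median of 165 (log2 fold change -3.60, SE 1.08, adjusted p = 0.0239). The soma was higher in 14 of 16 neurons. Its distal end 1 ranged from 0 to 239 CPM in dendrites (median 4.80) and from 0 to 76.1 CPM in somas (median 21.1). The log2 fold change was -0.23 (SE 1.02, adjusted p = 0.868), and 7 neurons had more in the soma and 6 in the dendrites. The difference between the ends is tested below through the share of reads on the distal end.

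The other called ends belonged to Ube2d1, Ube2f, Ube2k and Ube2w. Ube2f end 3 had a median of 2.86 CPM in dendrites, where values ran from 0 to 139.6, and of 89.3 CPM in somas, where they ran from 0 to 254 (log2 fold change -4.49, SE 1.41, adjusted p = 0.0291). Ube2d1 end 1 stood between 0 and 101 CPM in dendrites with a median of 1.80, and between 0 and 217 CPM in somas with a median of 76.2 (log2 fold change -4.10, SE 1.48, adjusted p = 0.0490). Ube2w end 5 ranged from 0 to 333 CPM in dendrites (median 21.5) and from 32.8 to 587 CPM in somas (median 149.7). The log2 fold change was -3.35 (SE 1.15, adjusted p = 0.0404). Ube2k had 4 tested ends with log2 fold changes of -4.51, -4.82, -3.40 and -2.45 from the most distal to the most proximal, of which the first alone was called (adjusted p = 0.0498, edgeR).

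**Figure D4:**
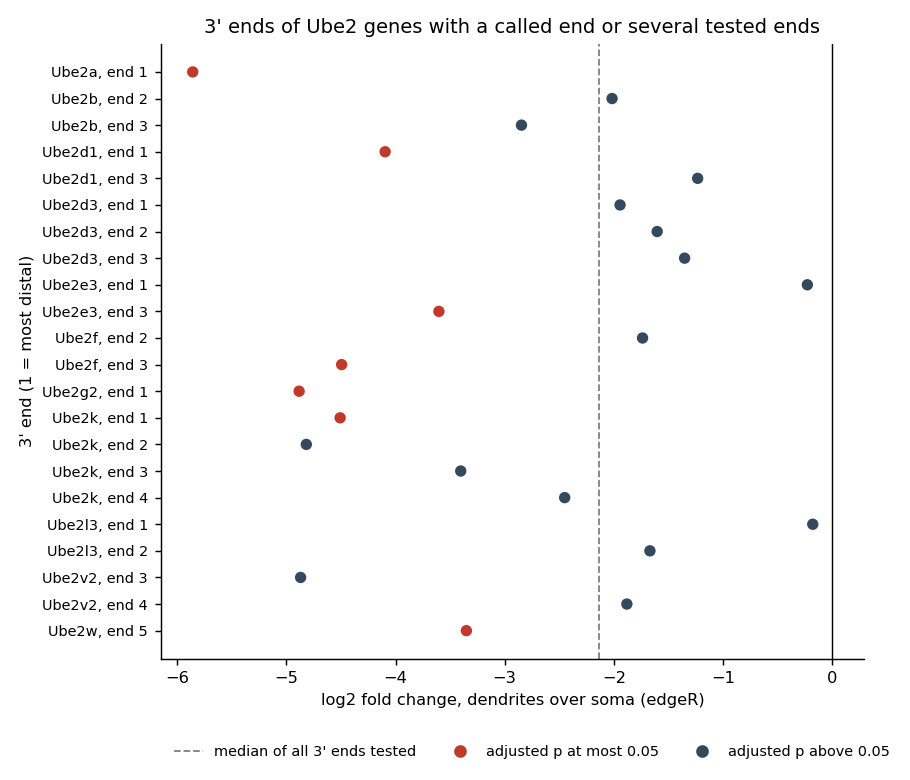
Log2 fold change of dendrites over somas (edgeR) of separately counted 3′ ends, for Ube2 genes with a called end or with several tested ends. The 7 called ends lie between -3.35 and -5.86, and end 1 of Ube2e3 and end 1 of Ube2l3 lie near 0.

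The distal fraction is the share of reads on the more distal of the 2 most used ends of a gene. It compares both ends within a library and so does not depend on the scaling between libraries. It was compared within neurons with the exact two-sided signed-rank test, for genes with at least 10 reads on the pair of ends in both compartments of at least 5 neurons. Of the 19 members that could be tested, 3 had p under 0.1 (15.8%), Ube2e3 and Ube2j2 among them, beside 8.4% of all 3522 genes. The fraction was higher in dendrites in each of the 3, a direction found with p under 0.1 in 5.39% of all genes. No member passed an adjustment over all genes, and 0 of the 3522 genes did. The mean difference was above 0 in 11 of the 19 members, beside 45.3% of all genes.

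The distal fraction of Ube2e3 was 0.431 ± 0.432 in dendrites and 0.0863 ± 0.0762 in somas, a difference of 0.345 ± 0.364 (SD, n = 11 neurons, exact signed-rank test, p = 0.0195, adjusted p = 0.910). The dendrites of neurons 4, 8, 10 and 11 had fractions of 0.992, 0.985, 0.898 and 0.916, whereas no soma of the 11 neurons exceeded 0.229. In neuron 4 the dendrites had 238 distal and 2 proximal reads, and the soma had 357 and 1203. The dendrites of neurons 5, 13 and 14 had no distal read, with 57, 12 and 302 proximal ones. Those of neuron 13 had 215 reads on the whole Ube2e3 3′UTR, so the fraction there rests on a small part of them. The fraction was higher in the dendrites of 7 neurons, lower in 2 and equal in 2, and the dendrite values spanned 0 to 0.992 (median 0.317), against 0 to 0.229 (median 0.0695) in somas.

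The distal fraction of Ube2j2 was 1 in all 9 dendrites and 0.988 ± 0.0135 in somas, a difference of 0.0118 ± 0.0135 (SD, n = 9 neurons, exact signed-rank test, p = 0.0312, adjusted p = 0.910). It was higher in the dendrites of 6 neurons and equal in 3. The proximal end had at most 14 reads in a soma, and the dendrites had 11 to 839 reads on both ends, so a proximal share as small as that of the somas was not detectable in most dendrites. Without neurons 15 and 16 the difference was 0.0124 (n = 8, exact p = 0.0625).

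**Figure D5:**
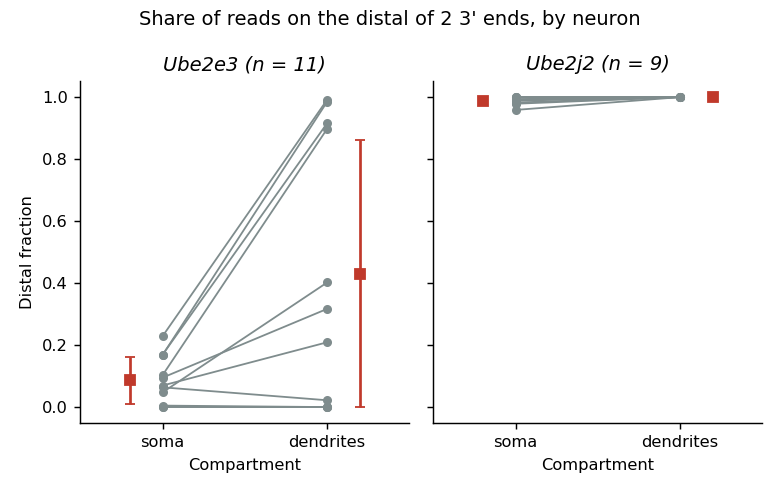
Distal fraction in soma and dendrites of each neuron (grey lines) for Ube2e3 and Ube2j2, with the mean and SD in red. Dendrite means are 0.431 and 1, and soma means are 0.0863 and 0.988.

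The other 16 members with a testable pair of ends had differences with both signs and no p under 0.1. Ube2d3 divided its reads almost evenly between 2 ends, with a distal fraction of 0.480 ± 0.303 in dendrites and 0.526 ± 0.236 in somas (SD, n = 14, exact signed-rank p = 0.715). Ube2k had 0.324 ± 0.331 and 0.310 ± 0.195 (SD, n = 13, exact p = 0.839). Ube2f had 0.466 ± 0.450 and 0.114 ± 0.305 (SD, n = 8, exact p = 0.156), with 5 neurons higher in dendrites and 2 in somas. Ube2v2 had dendrites in which all reads lay on one end, 3 on the distal and 3 on the proximal one. Ube2m, Ube2b, Ube2e1, Ube2e2 and Ube2h had means of 0.908 or more in both compartments, and Ube2r2 and Ube2d2a means of 0.0166 or less.

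The steps of the pathway around the E2 enzymes are given by the same test, in which 5.71% of all genes were called lower in dendrites and 0.827% higher (26.7% and 3.55% at an unadjusted p under 0.05, and 46.2% and 4.26% with DESeq2). Of 10 tested precursors of ubiquitin and its relatives, 0 passed in either direction (1 higher in dendrites at an unadjusted p under 0.05, DESeq2 1 in each direction), with a median log2 fold change of -0.22. With the dendrites rescaled to the median gene, 2 of the 10 were called higher in dendrites, beside 5.04% of all genes, and 0 higher in somas. DESeq2 without neurons 15 and 16 also called 2 higher in dendrites, beside 4.69% of all genes. Of 8 tested E1 enzymes 2 were lower in dendrites and 0 higher (5 lower at an unadjusted p under 0.05, DESeq2 7 lower, median -2.15). They were Nae1, a subunit of the NEDD8 E1 (log2 fold change -4.19, SE 1.17, adjusted p = 0.0275), and Atg7, the E1 of autophagy (log2 fold change -4.57, SE 1.46, adjusted p = 0.0469). Nae1 had a median of 2.02 CPM in dendrites, where values ran from 0 to 66.9, and of 72.9 CPM in somas, where they ran from 16.6 to 100.0, and its soma value was higher in 16 of 16 neurons.

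Further along, 0 of 7 E2 enzymes without the Ube2 symbol passed in either direction (2 lower in dendrites at an unadjusted p under 0.05, DESeq2 6 lower, median -1.82). Of 48 E3 ligases and adaptors 3 were lower in dendrites and 0 higher (6.25% lower, 19 lower at an unadjusted p under 0.05, DESeq2 27 lower, median -1.94). They were Cul5, a cullin scaffold (log2 fold change -5.65, SE 1.31, adjusted p = 0.0127), the RING ligase Siah1a (log2 fold change -6.03, SE 1.73, adjusted p = 0.0305) and Fzr1, an activator of the anaphase-promoting complex (log2 fold change -4.70, SE 1.45, adjusted p = 0.0415). Of 19 deubiquitinating enzymes 2 were lower in dendrites and 0 higher (4 lower at an unadjusted p under 0.05, DESeq2 10 lower, median -1.69). They were Psmd14, the deubiquitinase of the proteasome lid (log2 fold change -3.10, SE 0.90, adjusted p = 0.0319), and Stambp, which acts on endosomes (log2 fold change -5.17, SE 1.55, adjusted p = 0.0366). Psmd14 stood between 0 and 296 CPM in dendrites with a median of 62.8, and between 99.2 and 517 CPM in somas with a median of 309, with the soma higher in 16 of 16 neurons. Of these 7 called genes of the E1, E3 and deubiquitinase lists, Cul5 alone passed in edgeR without neurons 15 and 16 (log2 fold change -5.37, adjusted p = 0.0323), and the other 6 had adjusted p-values up to 0.148, where 0.928% of all genes were called higher in somas. DESeq2 called all 7 without both neurons, beside 26.6% of all genes. With the dendrites rescaled to the median gene 0 of the 7 passed in edgeR, with adjusted p-values from 0.0502 to 0.341, and all 7 kept a log2 fold change below 0.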

How the data were processed

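Soma and dendrites of 16 cultured mouse neurons were sequenced after linear amplification of poly-adenylated RNA. The authors aligned trimmed, stranded reads to mm10 with STAR (2.4.0 per the processing notes) and counted unique reads with VERSE by strand. The deposited values are raw read counts, on the union of each gene's 3′UTRs, on single 3′ ends and on exons. No column was left unused (0).

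Ube2 genes were selected by symbol. The members, the lists and the tests were chosen with earlier results of these data known. Genes and 3′ ends read in 16 or more samples (minimum 1 read) were compared with edgeR 4.0.16 (R 4.3.3, TMM, robust quasi-likelihood test), with neuron as a block and Benjamini-Hochberg adjustment over all features. DESeq2 1.42.0 was the alternative. The pairing comes from the cells, and the labels do not say how many cultures they came from. Deviations from the compartment mean correlated by 0.0887 ± 0.0772 (SD, n = 16) within neurons and by -0.0056 ± 0.0526 (SD, n = 240) between neurons. On simulated data the gene test called 115 of 196 genes changed by 4 on the log2 scale and 2 of 10637 unchanged ones. Distal fractions, marker sums and 3′ ends were computed in SciPy 1.17.1, pandas 2.3.3 and NumPy 2.4.6 under Python 3.11.

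Precision was taken from the spread between neurons. Genes named with values were those called at gene or 3′ end level, present in at least 15 dendrites, with a distal fraction p under 0.1, named in the study's text, or with the most reads left in their role group. Alternatives covered test, scaling, filters, block, rounds, exon counts, thinning and single neurons. Protein sequences were not used here. Single values of 1 member and 1 listed gene are not reported here.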

Additional observations from a re-analysis of the deposited data

Results flagged for a closer look

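In 41 groups of 4 to 10 neurons, the value of 1 neuron was compared with the others by Dixon's test at the 95% level. For normally distributed values this test marks about 1 in 20 groups by chance. It marked 8. The distal fraction differences among them are bounded and many are equal to 0, so that rate does not apply to them. The 8 marks therefore cannot be set against it. In the 4 neurons with 3 rounds of amplification, the difference of dendrites minus soma on the log2(CPM + 1) scale was -3.98 for Ube2j2 in neuron 4, with the other 3 between -0.01 and 0.60. For Ube2q1 it was -5.77 in neuron 4, with the others between -0.77 and 0.06. For Ube2n it was 1.24 in neuron 1, with the others between -0.53 and -0.25.

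Among the distal fractions, the difference of dendrites minus soma was 0.752 for Ube2e2 in neuron 1, with the other 8 neurons between 0 and 0.0769. It was 0.441 for Ube2h in neuron 12 (9 others between -0.0423 and 0.177) and 0.591 for Ube2q2 in neuron 8 (7 others between -0.0308 and 0.170). It was -0.254 for Ube2o in neuron 11 (8 others between -0.0043 and 0.0086) and -0.0309 for Ube2r2 in neuron 10 (9 others between -0.0160 and 0).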

How the results depend on the processing

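The number of Ube2 genes called lower in dendrites was 1 in the report, beside 5.71% of all genes. It was 18 with DESeq2 (46.2% of all genes) and 3 with DESeq2's size factors in edgeR (Ube2b, Ube2g1 and Ube2g2, beside 9.26%). It was 0 with the dendrites rescaled to the median gene (0.846%), with no filter beyond 1 read (0.46%), with at least 10 reads in 16 samples (2.55%), with no replicate block (paired information left out, 0.708%), with exon counts (2.62%), with the neurons of 2 rounds only (3.25%), with those of 3 rounds only (0.0092%), and with pairs thinned to equal reads (2.76%). Leaving out single neurons gave 0 to 1, beside 1.19% (without neuron 16) to 9.1% (without neuron 5) of all genes. The call of Ube2g2 was lost without neuron 1, 3, 4, 6, 10, 12, 13 or 16. Without neurons 15 and 16, an alternative chosen after seeing the data, the count was 0 with edgeR (0.928%) and 7 with DESeq2 (26.6%). No member was called higher in dendrites under any of these. The median log2 fold change of the members was -1.47 and ran from -1.67 to -0.90 over single neurons left out. It was -0.05 with the rescaled dendrites, when that of all genes was -0.05, and -0.65 with no replicate block, when that of all genes was -0.22. The 3′ ends called lower in dendrites were 7 in the report (16.9% of all ends), 26 with DESeq2 (60.2%), 2 with at least 10 reads in 16 samples (4.3%), 0 with no replicate block (1.26%), 1 with 2 rounds only (9.75%) and 1 without neurons 15 and 16 (2.86%), and none was called higher in dendrites. The end called with 2 rounds only was Ube2k end 2, which is not among the 7, and the end called without neurons 15 and 16 was Ube2g2 end 1. A distal fraction difference was found in 3 members (8.4% of all genes), in 4 at 5 reads, in 2 at 20 reads and in 3 to 5 over single neurons left out, with 5 without neuron 11. The share of all genes is given for the first of these settings alone, so the other counts cannot be set beside all genes. The number of members in at least 15 dendrites was 10, beside 17.1% of all genes tested. It was 4 at 10 reads, 3 for all 16 dendrites, 19 for at least 14 dendrites, 6 after thinning to the smallest dendrite and 19 without neurons 15 and 16, for which no share of all genes is given. For the pathway lists, leaving out neurons 15 and 16 and the rescaling were chosen after seeing the data. The cause of these changes was not tested. Depth limits the members with few reads and the distal fraction of dendrites with close to 10 reads.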
